A study of Mus musculus with 18 samples.

Results

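A set of 40 mouse genes with known peaks of expression in the cell cycle was followed in cancer cells that had grown with or without fibroblasts. Of these, 19 act around the G1/S transition and DNA replication and 21 act in G2 and mitosis. They were matched by gene symbol, and all 40 were found in both count tables, among 24455 symbols for the breast cancer line 168FARN and 24532 for the Lewis lung carcinoma line LLC1. All 40 also passed the filter on low counts, which kept 13540 and 12873 genes. The lowest count of any of them in any library was 486 in 168FARN and 768 in LLC1.

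The cancer cells of both lines carried GFP, were grown as hanging-drop spheroids and were purified by sorting ahead of RNA extraction, as the study's methods describe. Each line had 3 groups of 3 libraries: cancer cells alone, cancer cells with WT fibroblasts and cancer cells with sgPrrx1 fibroblasts, mixed at 3 fibroblasts per cancer cell. For 168FARN the fibroblasts were cancer-associated fibroblasts (CAFs) of MMTV-PyMT mice, in which a mammary promoter drives the polyoma middle T oncogene. For LLC1 they were wound healing fibroblasts of dorsal skin, taken on day 10 after wounding. WT fibroblasts carried a control guide RNA, and in sgPrrx1 fibroblasts the transcription factor gene Prrx1 was deleted with CRISPR/Cas9. The cancer cells themselves were not edited at Prrx1, so its level here does not check the labels. Neither the age nor the sex of the fibroblast donors is in the labels. Nothing says that the 3 libraries of a group came from separate cultures, so p-values measure the spread between these libraries, which may be technical. The comparisons address whether the proliferation programme of the cancer cells differed with the fibroblasts beside them, and whether it differed with loss of Prrx1 in those fibroblasts.

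Passage through G1 starts with the D-type cyclins, which with their kinases phosphorylate the retinoblastoma protein and release E2F transcription factors. E2F targets then include cyclin E, the loading factors and the MCM helicase that license replication origins, the sliding clamp PCNA and the enzymes that make deoxynucleotides. Genes of G2 and mitosis peak later, under complexes that bind a motif called the cell cycle genes homology region (CHR) together with CCAAT boxes, and they encode the cyclin B kinase, the spindle, the kinetochore and the machinery that ends mitosis. In a bulk library a higher level of such a gene can come from more cells in that phase or from more RNA per cell, and these cannot be told apart.

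Promoters of the G1/S and the G2/M genes held different shares of the letters that E2F and the mitotic complexes are known to read, given as a description. RefSeq promoters of GRCm38.p6, from 250 bases before to 50 bases after the start, were at hand for 31 of the 40 genes, and a gene with several starts counted once, by any of them. On either strand, an E2F motif (TTTCCCGC, TTTGGCGC, TTTGCCGC or TTTCGCGC) was found in 6 of 14 G1/S genes, or 42.9%, in 1 of 17 G2/M genes, or 5.88%, and in 2.6% of 27025 genes with a promoter. A CHR motif (TTTGAA or TTCGAA) was found in 2 of the 14, or 14.3%, in 14 of the 17, or 82.4%, and in 21.7% of all. A CCAAT box was present in 64.3% of the G1/S genes, 94.1% of the G2/M genes and 41.1% of all. Both CHR and CCAAT were present in 82.4% of the G2/M genes against 9.65% of all genes. No promoter was found for Ccnd1, Ccnd2, Ccne2, Gins2, Mcm4, Tpx2, Kif20a, Ccna2 and Aurkb.

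The 150 bases before the start, 5′ to 3′ on the strand of the gene, are given for 8 genes whose values are described in detail, with the E2F, CHR and CCAAT letters in capitals. The first 4 are G1/S genes. Mcm6 has E2F letters, 2 of whose matches overlap, and CCAAT boxes, Cdc6 has E2F letters, Pcna has a CCAAT box, and Tyms has none of the letters searched.
Mcm6 (chr1:128359706-128359855, minus strand): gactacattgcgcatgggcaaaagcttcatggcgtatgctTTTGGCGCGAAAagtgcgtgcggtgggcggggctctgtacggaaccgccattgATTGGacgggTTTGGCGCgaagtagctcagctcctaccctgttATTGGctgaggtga
Cdc6 (chr11:98908001-98908150, plus strand): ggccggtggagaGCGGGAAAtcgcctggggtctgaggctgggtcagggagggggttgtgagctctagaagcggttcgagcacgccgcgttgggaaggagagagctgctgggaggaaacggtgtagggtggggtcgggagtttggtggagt
Pcna (chr2:132253181-132253330, minus strand): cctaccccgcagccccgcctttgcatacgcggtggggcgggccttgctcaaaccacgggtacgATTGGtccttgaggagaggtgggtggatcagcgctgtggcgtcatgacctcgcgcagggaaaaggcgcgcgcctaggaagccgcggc
Tyms (chr5:30073626-30073775, minus strand): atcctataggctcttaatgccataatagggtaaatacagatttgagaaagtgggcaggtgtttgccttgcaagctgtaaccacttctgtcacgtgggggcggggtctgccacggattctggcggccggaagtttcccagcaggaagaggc
The other four are G2/M genes. Cdk1 holds E2F, CHR and CCAAT letters, Top2a and Mki67 hold CHR and CCAAT letters, and Ccnb1 holds 2 CCAAT boxes.
Cdk1 (chr10:69352913-69353062, minus strand): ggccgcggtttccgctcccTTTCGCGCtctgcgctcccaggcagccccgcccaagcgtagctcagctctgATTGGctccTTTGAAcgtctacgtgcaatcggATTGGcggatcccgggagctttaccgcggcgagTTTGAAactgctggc
Top2a (chr11:99024190-99024339, minus strand): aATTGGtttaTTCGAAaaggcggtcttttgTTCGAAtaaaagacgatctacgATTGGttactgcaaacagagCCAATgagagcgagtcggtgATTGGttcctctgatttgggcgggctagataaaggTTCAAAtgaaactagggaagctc
Mki67 (chr7:135716380-135716529, minus strand): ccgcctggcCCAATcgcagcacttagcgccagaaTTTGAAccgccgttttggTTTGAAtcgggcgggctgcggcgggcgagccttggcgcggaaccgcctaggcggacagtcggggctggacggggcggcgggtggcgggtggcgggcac
Ccnb1 (chr13:100786487-100786636, minus strand): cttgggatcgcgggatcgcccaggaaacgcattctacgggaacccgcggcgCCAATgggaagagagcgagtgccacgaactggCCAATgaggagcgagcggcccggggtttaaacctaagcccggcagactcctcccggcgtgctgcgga
A match of letters describes the sequence and does not show that a factor was bound in these cells.

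Totals ran from 48315037 to 68933002 counts in 168FARN libraries and from 66129117 to 103997557 in LLC1 libraries. Replicates varied less in 168FARN than in LLC1, with an edgeR biological coefficient of variation of 0.0728 against 0.228. One library stood apart. LLC1 sgPrrx1 replicate 3 had a scaling factor of 0.883 against 0.996 to 1.03 in the other 8, and 29 of the 40 genes lay more than 0.25 from the mean of its replicates on the log2 scale, from -1.44 to 0.91. LLC1 results are therefore given with and without it. Of 12 fibroblast markers, 4 or 5 had no count in the 168FARN libraries of cells alone, 1 with WT CAFs and 3 or 4 with sgPrrx1 CAFs. Their summed level was 140.5 to 145 CPM in 168FARN alone, 1116 to 1199 CPM with WT CAFs and 266 to 274 CPM with sgPrrx1 CAFs, so it moved with the groups. In LLC1, where at most 4 of the 12 had no count, it was 1772 to 1859 CPM alone, 1341 to 1378 CPM with WT fibroblasts and 1575 to 1726 CPM with sgPrrx1 fibroblasts. The sum over 10 epithelial markers also moved with the groups in 168FARN, at 323 to 345 CPM alone, 360 to 388 CPM with WT CAFs and 417 to 422 CPM with sgPrrx1 CAFs, with 3 to 7 of the 10 at no count. In LLC1 it was at most 0.755 CPM, and the 3 lung epithelial markers had no count in any LLC1 library. The sum over 5 immune markers, 2 or 3 of them at no count, was 47.3 to 51.3 CPM alone, 27.6 to 30.6 CPM with WT and 33.8 to 34.5 CPM with sgPrrx1 CAFs in 168FARN. In LLC1 it was 16.0 to 17.3 CPM alone, 36.4 to 38.3 CPM with WT and 36.4 to 64.8 CPM with sgPrrx1 fibroblasts. Over 4 endothelial markers it was at most 0.658 CPM alone, 5.71 to 6.74 CPM with WT and 4.08 to 4.64 CPM with sgPrrx1 CAFs in 168FARN, and at most 0.103 CPM alone, 5.57 to 6.67 CPM with WT and at most 0.352 CPM with sgPrrx1 fibroblasts in LLC1.

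Pcna had the highest mean level and Ccne2 the lowest in both lines grown alone. Levels are in CPM, counts scaled to library size with TMM factors, and genes are compared with each other only per kilobase of transcript. On that scale the mean of the sliding clamp gene Pcna was 271 ± 7.03 CPM per kb (SD, n = 3) in 168FARN and 191 ± 10.9 CPM per kb in LLC1. Ccnd1 followed in 168FARN at 248 ± 0.599 CPM per kb, above Ube2c, the ubiquitin-conjugating enzyme of the anaphase-promoting complex, at 171 ± 7.51 CPM per kb, and Rrm2, the small subunit of ribonucleotide reductase, at 169 ± 2.27 CPM per kb. Ube2c and Rrm2 did not differ beyond their spread. In LLC1 the next were Ube2c at 175 ± 13.6 CPM per kb, the helicase subunit Mcm6 at 133 ± 2.22 CPM per kb and the topoisomerase Top2a at 129 ± 9.97 CPM per kb. There Pcna and Ube2c did not differ beyond their spread, and neither did Mcm6 and Top2a. Cyclin E2 (Ccne2) was lowest in both lines, at 3.54 and 4.61 CPM per kb. G1/S and G2/M genes were mixed along the order.

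In 168FARN, more G1/S genes were higher than lower in both cocultures, and the G2/M genes went different ways. With sgPrrx1 CAFs, 15 of the 19 G1/S genes were higher than in cells alone and 0 were lower, while among the 21 G2/M genes 3 were higher and 9 lower. Over all genes tested, 49.7% passed the threshold in that comparison, 25.7% higher and 24.1% lower. With WT CAFs, 11 G1/S genes were higher and 5 lower than alone, and 10 G2/M genes were higher and 5 lower, beside 64.1% of all genes (33.4% higher and 30.7% lower). Between both cocultures, sgPrrx1 against WT, 8 G1/S genes were higher and 6 lower and 5 G2/M genes were higher and 13 lower, beside 60% of all genes (26.9% higher and 33.1% lower). The lower G1/S genes fell to 3 when any 1 sgPrrx1 library or WT replicate 1 was left out, beside 54.4% to 55.1% of all genes. They were also 3 when only those groups were fitted, beside 59.1%. These are edgeR quasi-likelihood calls at an adjusted p under 0.05. The 3 comparisons share libraries, so they are not independent.

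The changes were small. The median log2 fold change of the G1/S genes was 0.11 for WT against alone and 0.14 for sgPrrx1 against alone, and that of the G2/M genes was 0.06 and -0.05. For sgPrrx1 against WT the medians were 0.03 and -0.15, and the first turned to -0.022 without scaling factors. Over all genes tested the medians of the 3 comparisons were 0.0061, 0.0046 and -0.028. Regardless of sign, the median change of the 40 genes was 0.18, 0.13 and 0.16, below the 0.26, 0.17 and 0.24 of all genes. The median coefficient of variation of the 40 genes was between 1.79% and 2.52% in the 3 groups. As a score per library, the mean of centred log2 CPM over the G1/S genes was -0.080 to -0.075 alone, -0.033 to -0.0076 with WT CAFs and 0.089 to 0.11 with sgPrrx1 CAFs, with no overlap. The same score over the G2/M genes was -0.0044 to 0.012 alone, 0.037 to 0.056 with WT CAFs and -0.056 to -0.044 with sgPrrx1 CAFs. The sgPrrx1 libraries were thus highest of the 3 groups for G1/S and lowest for G2/M.

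**Figure D1:**
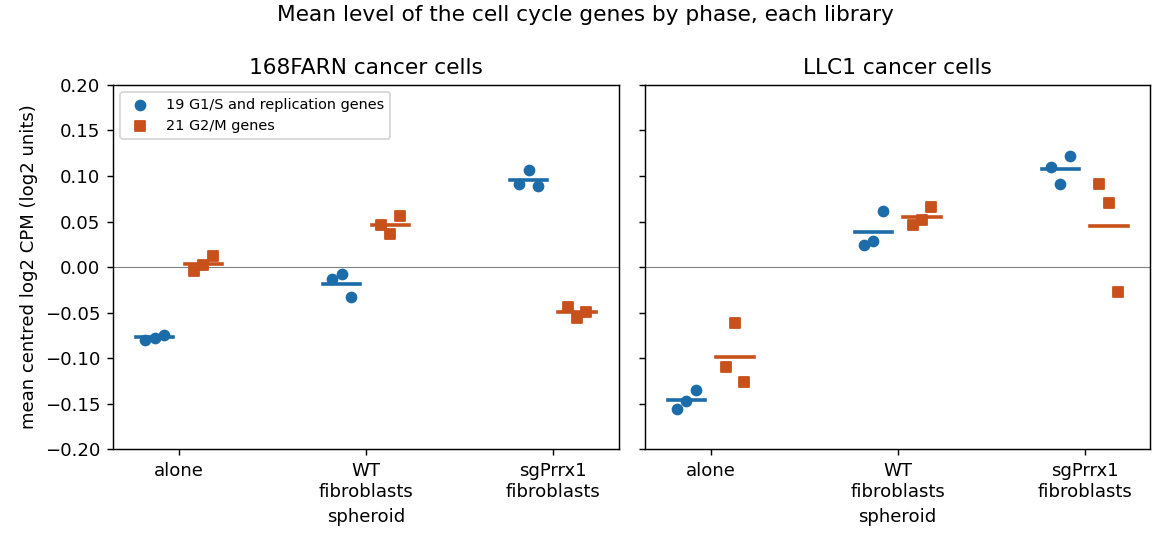
Mean centred log2 CPM of the 19 G1/S genes (circles) and the 21 G2/M genes (squares) in each library, by group on the x axis, 1 panel per line, with bars for the mean of 3 libraries. In 168FARN with sgPrrx1 CAFs the G1/S points lie at 0.089 to 0.11 and the G2/M points at -0.056 to -0.044, and in LLC1 sgPrrx1 replicate 3 lies at -0.028 for G2/M.

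Transcript length moved with these 168FARN differences. The rank correlation of log2 fold change with transcript length was 0.29 over the 40 genes and 0.24 over 11848 genes for WT against alone, -0.31 and -0.059 for sgPrrx1 against alone, and -0.40 and -0.33 for sgPrrx1 against WT, all across genes, which are not independent replicates. With an offset for length and GC content in each library, sgPrrx1 against alone still gave 15 higher and 0 lower G1/S genes and 3 higher and 10 lower G2/M genes, beside 50.7% of all genes. WT against alone gave 10 higher and 5 lower G1/S genes and 9 higher and 5 lower G2/M genes, beside 62.2%. For sgPrrx1 against WT, 10 G1/S genes were higher and 4 lower and 3 G2/M genes higher and 17 lower, beside 55.7%. When the same offset was not centred, so that the median of all genes shifted, higher and lower genes numbered 3 and 26 for WT against alone, 7 and 18 for sgPrrx1 against alone, and 20 and 7 for sgPrrx1 against WT, beside 72.6%, 58.9% and 58.2% of all genes. Of the G1/S genes, 0 were then higher and 10 lower for WT against alone. That shift ran from -0.25 to 0.11, and the G1/S median stayed above the G2/M median in all 3 comparisons. Both offsets were chosen after the data had been seen. The part of the summed fibroblast, epithelial, immune and endothelial markers in these differences was not tested.

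Of the 3 D-type cyclins, which couple growth signals to the start of the cycle, all were higher with WT CAFs than alone, beside 33.4% of all genes. Cyclin D1 (Ccnd1) stood at 932, 927 and 929 CPM alone, 1170.5, 1225 and 1202 CPM with WT CAFs and 1211, 1245 and 1217 CPM with sgPrrx1 CAFs. Both cocultures lay above the cells alone without overlap, with log2 fold changes of 0.37 ± 0.019 (SE; adjusted p = 3.15e-08) for WT and 0.40 ± 0.019 (SE; adjusted p = 2.86e-08) for sgPrrx1, and the cocultures did not differ at the threshold. Cyclin D2 (Ccnd2) stood at 248, 249 and 247 CPM alone, 268, 260.1 and 272 CPM with WT CAFs and 271, 271 and 277 CPM with sgPrrx1 CAFs, also lowest alone. Cyclin D3 (Ccnd3) stood at 76.2, 66.6 and 70.4 CPM alone, 89.7, 88.9 and 85.6 CPM with WT CAFs and 76.1, 72.7 and 79.5 CPM with sgPrrx1 CAFs. It was highest with WT CAFs, by 0.31 ± 0.049 (SE; adjusted p = 2.16e-04) over cells alone, and sgPrrx1 was lower than WT by a log2 fold change of -0.21 ± 0.049 (SE; adjusted p = 0.00327). Reads of Ccnd1, Ccnd2 and Ccnd3 may be shared with genes that overlap them, and Ccnd3 has a pseudogene copy. Other genes also overlap Ccne2, E2f1, Mcm7, Gins2, Ccna2, Cdc20, Aurka and Kif20a.

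Cyclin E genes, which drive entry into S phase, and E2f1 were all higher with sgPrrx1 CAFs than alone, beside 25.7% of all genes. Cyclin E1 (Ccne1) stood at 88.9, 90.6 and 87.8 CPM alone, 82.5, 84.1 and 83.8 CPM with WT CAFs and 111, 114 and 108 CPM with sgPrrx1 CAFs, lowest with WT CAFs and highest with sgPrrx1 CAFs. Cyclin E2 (Ccne2) stood at 9.99, 10.5 and 11.4 CPM alone, 9.86, 10.7 and 10.1 CPM with WT CAFs and 14.4, 13.7 and 13.4 CPM with sgPrrx1 CAFs. The sgPrrx1 libraries lay above all others, by 0.38 ± 0.064 (SE; adjusted p = 5.24e-04) over cells alone and 0.44 ± 0.063 (SE; adjusted p = 1.24e-04) over WT coculture. E2f1, the transcription factor at the head of the G1/S programme, stood at 66.3, 64.5 and 65.0 CPM alone, 80.5, 76.4 and 81.1 CPM with WT CAFs and 74.0, 79.1 and 78.6 CPM with sgPrrx1 CAFs, with both cocultures above the cells alone.

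More of the 9 genes for loading origins and building the replicative helicase were higher than lower in coculture. With sgPrrx1 CAFs 8 of the 9 passed the test upwards against cells alone and 0 downwards, beside 25.7% and 24.1% of all genes, and with WT CAFs 6 were higher and 1, Gins2, was lower, beside 33.4% and 30.7%. Of 19 alternatives, the call for sgPrrx1 against alone was lost in 10 for Mcm4 and 9 for Gins2. Cdc6, which loads the helicase onto origins, stood at 46.1, 46.3 and 48.5 CPM alone, 53.7, 53.5 and 52.8 CPM with WT CAFs and 60.5, 57.2 and 59.1 CPM with sgPrrx1 CAFs. Its groups did not overlap, and sgPrrx1 exceeded cells alone by 0.33 ± 0.031 (SE; adjusted p = 7.01e-06). The MCM helicase subunits were split between the cocultures, since Mcm2, Mcm4, Mcm6 and Mcm7 were lower with sgPrrx1 than with WT CAFs, Mcm5 was higher, and Mcm3 did not pass. Those of Mcm6 and Mcm7 were lost in 11 and 13 of 19 alternatives. Mcm2 stood at 227, 224 and 222 CPM alone, 282, 274 and 267 CPM with WT CAFs and 242, 255 and 241 CPM with sgPrrx1 CAFs. It was 0.29 ± 0.031 (SE; adjusted p = 1.01e-05) above cells alone with WT CAFs on the log2 scale, and for sgPrrx1 against WT the value was -0.16 ± 0.031 (SE; adjusted p = 0.00107). Mcm4 stood at 124, 131 and 133 CPM alone, 154, 153 and 156 CPM with WT CAFs and 135, 144 and 137 CPM with sgPrrx1 CAFs, with -0.16 ± 0.035 (SE; adjusted p = 0.00272) for sgPrrx1 against WT. Gins2, a subunit of the GINS complex of the moving helicase, behaved differently, at 32.7, 33.2 and 31.7 CPM alone, 27.2, 28.6 and 27.3 CPM with WT CAFs and 35.1, 35.3 and 33.9 CPM with sgPrrx1 CAFs. It fell with WT CAFs, by -0.23 ± 0.035 (SE; adjusted p = 1.39e-04), and was highest with sgPrrx1 CAFs.

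Tyms and Pcna had the largest differences between both cocultures among the 19 G1/S genes, while the ribonucleotide reductase genes differed less. Tyms, the thymidylate synthase, stood at 73.3, 70.2 and 74.0 CPM alone, 45.8, 47.4 and 45.0 CPM with WT CAFs and 70.3, 74.9 and 67.7 CPM with sgPrrx1 CAFs. The WT libraries were the lowest, with a log2 fold change of -0.65 ± 0.041 (SE; adjusted p = 1.34e-07) against alone and 0.62 ± 0.041 (SE; adjusted p = 2.96e-07) for sgPrrx1 against WT, and sgPrrx1 overlapped the cells alone. Pcna stood at 404, 423 and 407 CPM alone, 328, 348 and 337 CPM with WT CAFs and 500.1, 508 and 511 CPM with sgPrrx1 CAFs. It was lowest with WT CAFs and highest with sgPrrx1 CAFs, at -0.28 ± 0.028 (SE; adjusted p = 4.70e-06) for WT against alone and 0.58 ± 0.028 (SE; adjusted p = 3.37e-08) for sgPrrx1 against WT. Rrm2 had the same order, at 370.5, 365 and 375 CPM alone, 351, 354 and 349.9 CPM with WT CAFs and 413, 410.2 and 419 CPM with sgPrrx1 CAFs. The large subunit gene Rrm1 was instead highest with WT CAFs and passed the test upwards against cells alone and downwards for sgPrrx1 against WT. The last of these calls was lost in 6 of 19 alternatives. Pcna and Tyms have pseudogene copies, so some of their reads may be split.

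**Figure D2:**
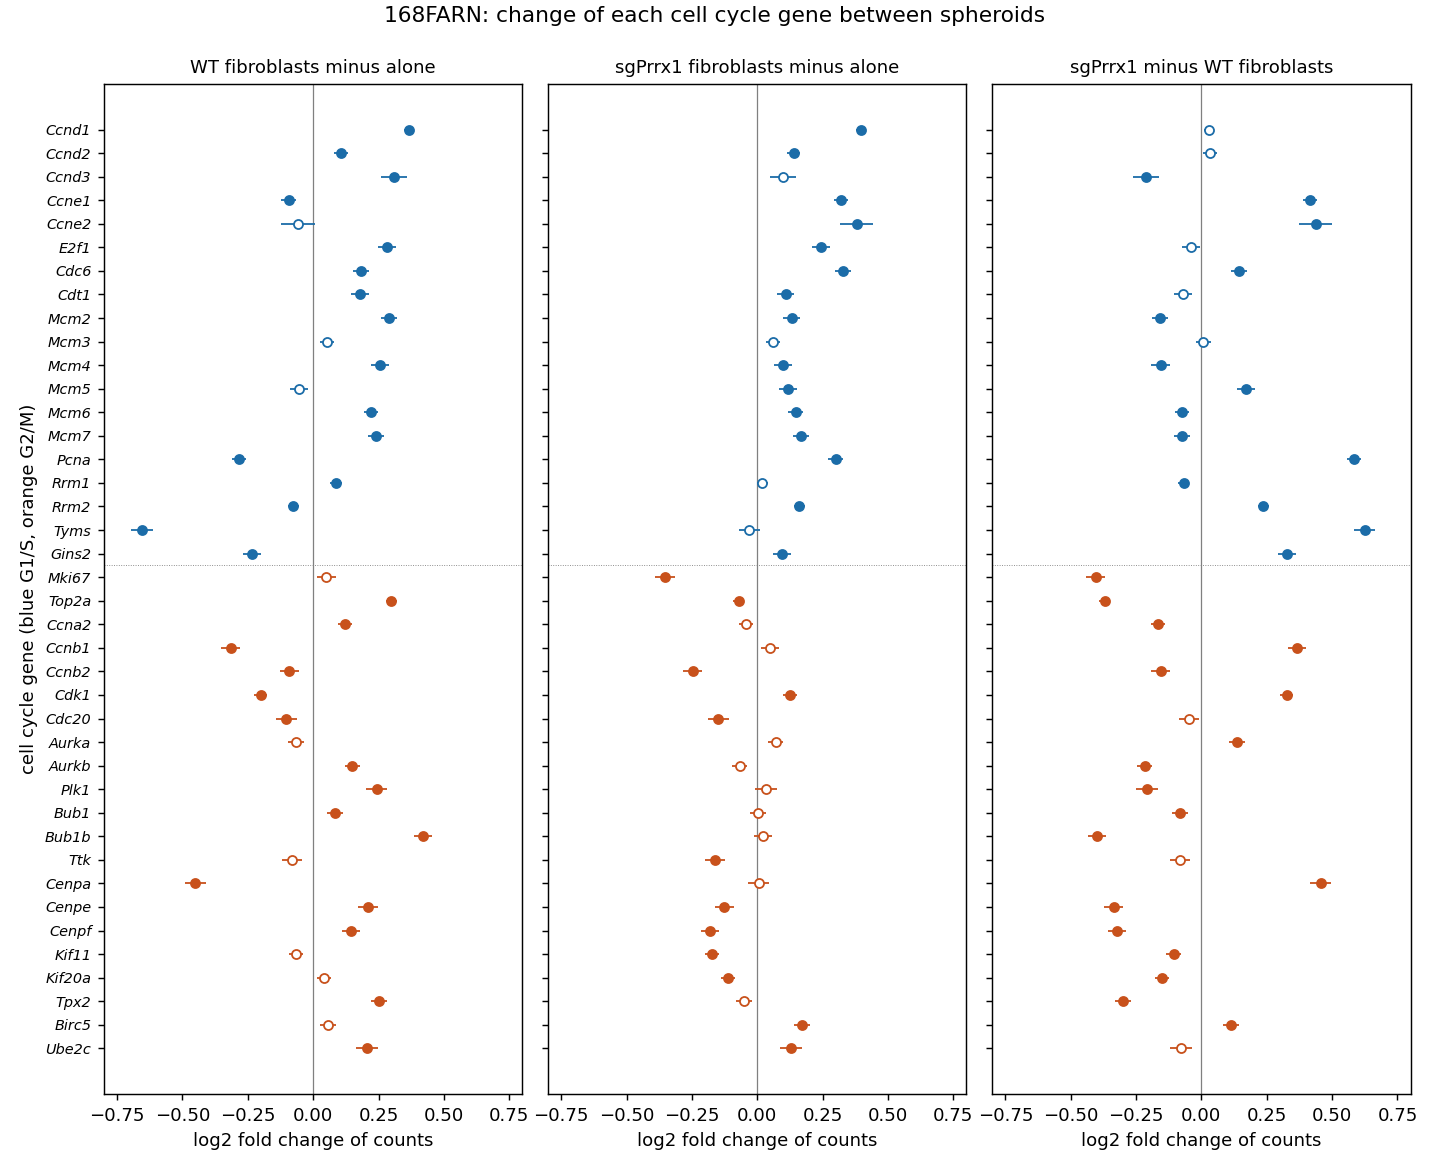
Log2 fold change of each of the 40 genes in 168FARN for WT against alone, sgPrrx1 against alone and sgPrrx1 against WT, with bars for the SE and filled points for an adjusted p under 0.05 in edgeR's quasi-likelihood test. For sgPrrx1 against alone, filled G1/S points lie above 0, and 9 of the 12 filled G2/M points lie below 0.

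Both chromatin markers of proliferating cells were lower with sgPrrx1 CAFs than alone and than with WT CAFs, beside 24.1% and 33.1% of all genes. Mki67, which coats mitotic chromosomes, stood at 277, 292 and 284 CPM alone, 296, 278 and 308 CPM with WT CAFs and 224, 224 and 219 CPM with sgPrrx1 CAFs. The sgPrrx1 libraries lay below all others, by a log2 fold change of -0.35 ± 0.037 (SE; adjusted p = 1.65e-05) against alone and -0.40 ± 0.037 (SE; adjusted p = 3.85e-06) against WT, while WT and alone did not differ at the threshold. Top2a, which untangles sister chromatids, stood at 623, 650.3 and 636 CPM alone, 779.6, 792 and 777 CPM with WT CAFs and 608, 612 and 597 CPM with sgPrrx1 CAFs. It was highest with WT CAFs, by 0.30 ± 0.021 (SE; adjusted p = 3.36e-07) over cells alone, and lowest with sgPrrx1 CAFs, at -0.37 ± 0.021 (SE; adjusted p = 1.06e-07) against WT.

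Cyclin B1 and its kinase were lowest with WT CAFs, whereas cyclin A2 and cyclin B2 were lowest with sgPrrx1 CAFs. Ccnb1 stood at 181, 185 and 188 CPM alone, 153, 149.8 and 141 CPM with WT CAFs and 188, 195 and 189.8 CPM with sgPrrx1 CAFs. The log2 fold change was -0.32 ± 0.035 (SE; adjusted p = 1.36e-05) for WT against alone and 0.37 ± 0.035 (SE; adjusted p = 5.60e-06) for sgPrrx1 against WT. Cdk1 stood at 194, 192 and 194 CPM alone, 166, 172 and 167 CPM with WT CAFs and 212, 209.7 and 211 CPM with sgPrrx1 CAFs. Its 3 groups did not overlap, at -0.20 ± 0.026 (SE; adjusted p = 3.88e-05) for WT against alone, 0.13 ± 0.026 (SE; adjusted p = 0.00189) for sgPrrx1 against alone and 0.33 ± 0.026 (SE; adjusted p = 1.16e-06) for sgPrrx1 against WT. Ccnb2 stood at 96.8, 96.4 and 99.3 CPM alone, 90.9, 88.8 and 94.8 CPM with WT CAFs and 80.0, 80.1 and 86.2 CPM with sgPrrx1 CAFs, highest alone, with -0.25 ± 0.037 (SE; adjusted p = 2.29e-04) for sgPrrx1 against alone. Ccnb1 and Ccnb2 have pseudogene copies.

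Of Aurka, Aurkb, Plk1 and Birc5, none was lower with either CAF type than alone at the threshold. Of all genes, 30.7% were lower with WT CAFs and 24.1% with sgPrrx1 CAFs. Birc5 (survivin, which with Aurkb forms the chromosomal passenger complex) stood at 109, 112 and 112 CPM alone, 115, 119 and 114 CPM with WT CAFs and 128, 122 and 126 CPM with sgPrrx1 CAFs. It was highest with sgPrrx1 CAFs, by 0.17 ± 0.030 (SE; adjusted p = 6.83e-04) over cells alone. Aurkb and Plk1 passed upwards for WT against alone and downwards for sgPrrx1 against WT, and Aurka passed upwards for sgPrrx1 against WT. The spindle checkpoint kinase Bub1b stood at 121, 123 and 121 CPM alone, 166, 165 and 157 CPM with WT CAFs and 128, 124 and 119 CPM with sgPrrx1 CAFs. WT libraries lay above all others, by 0.42 ± 0.035 (SE; adjusted p = 1.20e-06) over cells alone, and sgPrrx1 against WT was -0.40 ± 0.035 (SE; adjusted p = 2.60e-06). Bub1 had the same calls as Bub1b, that for sgPrrx1 against WT being lost in 11 of 19 alternatives. Ttk, the kinase at the head of the checkpoint, was lower with sgPrrx1 CAFs than alone and did not pass in the other comparisons.

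The centromere and spindle genes went different ways. Cenpa, the histone variant that marks centromeres, stood at 168, 163 and 170.2 CPM alone, 122, 128 and 117 CPM with WT CAFs and 169, 161 and 173 CPM with sgPrrx1 CAFs, lowest with WT CAFs, at -0.45 ± 0.040 (SE; adjusted p = 1.98e-06) for WT against alone and 0.46 ± 0.040 (SE; adjusted p = 2.47e-06) for sgPrrx1 against WT. The kinetochore genes Cenpe and Cenpf were instead highest with WT CAFs and lowest with sgPrrx1 CAFs. Cenpf stood at 90.6, 96.5 and 88.6 CPM alone, 100.0, 102 and 103 CPM with WT CAFs and 82.9, 79.8 and 80.8 CPM with sgPrrx1 CAFs, with -0.18 ± 0.034 (SE; adjusted p = 0.00124) for sgPrrx1 against alone. Tpx2, which nucleates spindle microtubules and activates Aurka, stood at 234, 238 and 243 CPM alone, 281, 275 and 295 CPM with WT CAFs and 227, 233 and 230.5 CPM with sgPrrx1 CAFs, highest with WT CAFs by 0.25 ± 0.030 (SE; adjusted p = 2.75e-05) over cells alone. The motor genes Kif11 and Kif20a passed downwards for sgPrrx1 against both other groups. Of the pair that acts with the anaphase-promoting complex, Cdc20 was lower in both cocultures than alone, with the WT call lost in 9 of 19 alternatives, and Ube2c was higher. Ube2c stood at 171, 157 and 168 CPM alone, 186, 184 and 202 CPM with WT CAFs and 178, 179 and 184 CPM with sgPrrx1 CAFs. Its log2 fold change of 0.13 ± 0.043 (SE; adjusted p = 0.0273) for sgPrrx1 against alone lost its call with the length and GC offset, without scaling factors, and when sgPrrx1 replicate 2 or 3 or alone replicate 2 or 3 was left out.

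**Figure D3:**
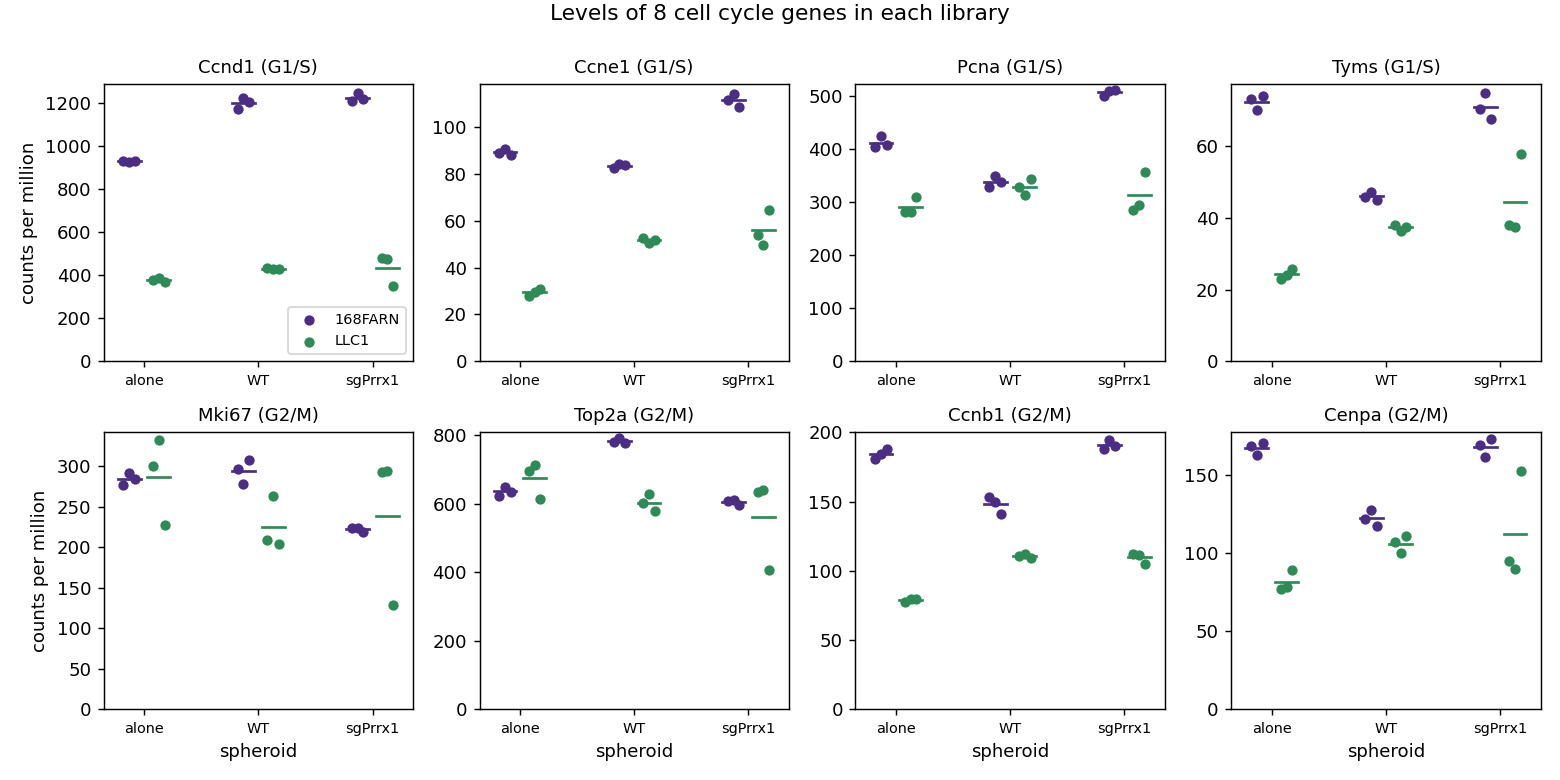
CPM of 4 G1/S genes (top) and 4 G2/M genes (bottom) in each library (points) with the mean of 3 libraries (bars), by group on the x axis, for 168FARN and LLC1, which were scaled separately. In 168FARN, Tyms and Ccnb1 are lowest with WT CAFs and Mki67 is lowest with sgPrrx1 CAFs, and in LLC1 one sgPrrx1 library lies away from its replicates in most panels.

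By library values, the 168FARN groups separated in several patterns, whose counts differed between the G1/S and the G2/M genes. All 3 sgPrrx1 libraries lay below the other six in 10 of the G2/M genes and in 0 of the G1/S genes, and above them in 7 G1/S genes and 4 G2/M genes, beside 13.8% of all genes below and 12.9% above. The 3 WT libraries lay below the other six in 5 G1/S genes (Tyms, Pcna, Gins2, Ccne1 and Rrm2) and 4 G2/M genes (Ccnb1, Cdk1, Cenpa and Aurka), and above them in 7 and 9, beside 21% of all genes below and 25.3% above. Cells alone were below both cocultures in 9 G1/S genes and 2 G2/M genes, beside 18.7% of all genes, and above both in 0 and 3, beside 16.6%.

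In LLC1 fewer genes passed, and their number changed with single libraries left out. With WT fibroblasts 8 genes were higher and 1 lower than in cells alone, beside 8.83% of all genes (4.25% higher and 4.58% lower). The higher ones were 4 G1/S genes (Ccne1, Ccne2, Rrm1 and Rrm2) and 4 G2/M genes (Ccnb1, Aurka, Kif20a and Birc5), and the lower one was Cdt1. With sgPrrx1 fibroblasts 7 genes were higher than alone and 0 lower, beside 4.32% of all genes (2.01% higher and 2.31% lower): Ccne1, Rrm2, Tyms, Ccnb1, Aurka, Plk1 and Kif20a. No gene of the 40 passed for sgPrrx1 against WT, where 0.0544% of all genes did. In that comparison 1 passed with DESeq2, beside 3.9% of all genes, and 20 with limma voom and sample quality weights, beside 36.4%. Without sgPrrx1 replicate 3 the counts were 23 higher and 5 lower for WT against alone, beside 44.2% of all genes (22% higher and 22.2% lower). They were 19 higher and 2 lower for sgPrrx1 against alone, beside 26.7% (12.5% and 14.2%), and 0 for sgPrrx1 against WT, beside 5.69% (2.94% and 2.75%). Leaving out 1 alone or WT library instead left 2 to 4 genes for WT against alone and 0 to 4 for sgPrrx1 against alone, beside 2.09% to 3.05% and 0.398% to 1.61% of all genes, and leaving out sgPrrx1 replicate 1 left 3 for the second, beside 1.22%. When only the 6 libraries of the groups compared were fitted, 24 passed for WT against alone, beside 40.7% of all genes, and 0 for sgPrrx1 against alone, beside 0.215%. With the length and GC offset 11 were higher and 5 lower for WT against alone, beside 23.5%, and 19 higher and 2 lower for sgPrrx1 against alone, beside 22.6%.

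Scores of both phases were lowest in LLC1 cells alone. The G1/S score was -0.16 to -0.13 alone, 0.025 to 0.061 with WT fibroblasts and 0.091 to 0.12 with sgPrrx1 fibroblasts. The G2/M score was -0.13 to -0.061 alone, 0.046 to 0.065 with WT fibroblasts, and 0.091, 0.071 and -0.028 in the 3 sgPrrx1 libraries, the last being replicate 3. Median log2 fold changes of the G1/S and G2/M genes were 0.12 and 0.22 for WT against alone, 0.22 and 0.16 for sgPrrx1 against alone, and 0.12 and 0.013 for sgPrrx1 against WT, beside -0.016, -0.0062 and 0.020 over all genes. The median coefficient of variation of the 40 genes was 4.62% alone, 3.06% with WT fibroblasts and 17.7% with sgPrrx1 fibroblasts.

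In the same line, the D-type cyclins and Cdc6 passed upwards in at least 1 coculture when sgPrrx1 replicate 3 was left out, where 44.2% and 26.7% of all genes passed for WT and sgPrrx1 against alone, and in none with it. Ccnd1 stood at 376, 386 and 368 CPM alone, 434, 429 and 429.8 CPM with WT fibroblasts and 479.7, 475 and 352 CPM with sgPrrx1 fibroblasts. Ccnd2 stood at 149, 161 and 127 CPM alone, 178, 187 and 158 CPM with WT fibroblasts and 199.7, 199.99 and 73.8 CPM with sgPrrx1 fibroblasts, and its sgPrrx1 replicate 3 value lay far below that of its replicates. Ccnd3 stood at 129.9, 129 and 141 CPM alone, 140.5, 133 and 134 CPM with WT fibroblasts and 154, 152 and 244 CPM with sgPrrx1 fibroblasts, where the same library was the highest of the 9.

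Cyclin E1 was higher with both types of wound fibroblasts. Ccne1 stood at 28.1, 29.5 and 30.7 CPM alone, 52.6, 50.3 and 51.7 CPM with WT fibroblasts and 53.7, 49.5 and 64.6 CPM with sgPrrx1 fibroblasts. The alone libraries were lowest. Ccne1 changed by 0.81 ± 0.11 (SE; adjusted p = 0.00591) with all libraries and 0.82 ± 0.057 (SE; adjusted p = 4.01e-05) without sgPrrx1 replicate 3 on the log2 scale for WT against alone. It changed by 0.93 ± 0.11 (SE; adjusted p = 0.0072) with all libraries and 0.82 ± 0.062 (SE; adjusted p = 1.42e-04) without sgPrrx1 replicate 3 for sgPrrx1 against alone. The call was kept in all 19 alternatives for WT and lost in 3 for sgPrrx1, without alone replicate 1 or 2 and with only the groups compared. Ccne2 stood at 13.6, 14.7 and 13.3 CPM alone, 27.0, 24.7 and 30.01 CPM with WT fibroblasts and 25.2, 23.3 and 13.1 CPM with sgPrrx1 fibroblasts, and sgPrrx1 replicate 3 lay at the level of the cells alone. Ccne2 changed by 0.98 ± 0.22 (SE; adjusted p = 0.0332) with all libraries and 0.99 ± 0.077 (SE; adjusted p = 5.99e-05) without sgPrrx1 replicate 3 for WT against alone. That call was lost in 8 of 19 alternatives, when any 1 alone or WT library was left out, without scaling factors, and with the replicate block (adjusted p = 0.0521, edgeR). E2f1 stood at 60.1, 62.1 and 64.1 CPM alone, 37.9, 61.7 and 64.4 CPM with WT fibroblasts and 62.6, 60.9 and 60.8 CPM with sgPrrx1 fibroblasts. WT replicate 1 was well below its 2 replicates, and the gene passed in no comparison.

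Of the genes of nucleotide supply among the 40, Rrm2 was higher with both fibroblast types when all libraries were used. In that fit Rrm1 passed with WT fibroblasts and Tyms with sgPrrx1 fibroblasts. Without sgPrrx1 replicate 3, all 4 of Pcna, Rrm1, Rrm2 and Tyms were higher for WT against alone, beside 22% of all genes. Rrm2 stood at 126, 123 and 125 CPM alone, 207, 204 and 207 CPM with WT fibroblasts and 208, 217 and 177 CPM with sgPrrx1 fibroblasts, lowest alone. Rrm2 changed by 0.72 ± 0.094 (SE; adjusted p = 0.00514) with all libraries and 0.73 ± 0.045 (SE; adjusted p = 2.29e-05) without sgPrrx1 replicate 3 for WT against alone. The change was 0.68 ± 0.094 (SE; adjusted p = 0.011) with all libraries and 0.77 ± 0.050 (SE; adjusted p = 6.67e-05) without sgPrrx1 replicate 3 for sgPrrx1 against alone. The call was kept in all 19 alternatives for WT and lost in 4 for sgPrrx1, and that of Rrm1 for WT was lost in 13 of 19, the replicate block among them. Tyms stood at 23.1, 24.0 and 25.7 CPM alone, 38.1, 36.5 and 37.5 CPM with WT fibroblasts and 38.1, 37.6 and 57.9 CPM with sgPrrx1 fibroblasts, with sgPrrx1 replicate 3 the highest of the 9. Tyms changed by 0.88 ± 0.17 (SE; adjusted p = 0.0298) with all libraries and 0.65 ± 0.064 (SE; adjusted p = 4.32e-04) without sgPrrx1 replicate 3 for sgPrrx1 against alone. Cdt1, which loads the helicase with Cdc6, was the gene that fell with WT fibroblasts. It stood at 195, 197 and 213 CPM alone, 139.6, 133 and 132 CPM with WT fibroblasts and 155, 157 and 205 CPM with sgPrrx1 fibroblasts. The WT libraries were lowest, by -0.58 ± 0.12 (SE; adjusted p = 0.0238) with all libraries and -0.57 ± 0.058 (SE; adjusted p = 1.86e-04) without sgPrrx1 replicate 3. Of 19 alternatives, the call was lost for Cdt1 in the 6 that left out 1 alone or WT library and for Tyms in 8.

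Among the G2/M genes of LLC1, Ccnb1 was higher with both fibroblast types, and the calls of Aurka lay near the threshold. Ccnb1 stood at 77.2, 79.8 and 79.6 CPM alone, 110.5, 112 and 109 CPM with WT fibroblasts and 112, 112 and 105 CPM with sgPrrx1 fibroblasts, lowest alone. Ccnb1 changed by 0.49 ± 0.076 (SE; adjusted p = 0.00889) with all libraries and 0.50 ± 0.040 (SE; adjusted p = 6.87e-05) without sgPrrx1 replicate 3 for WT against alone. Its call was lost in 3 of 19 alternatives for WT, without alone replicate 1 or 2 or WT replicate 1, and in 9 of 19 for sgPrrx1. Aurka stood at 64.1, 64.1 and 67.9 CPM alone, 92.7, 88.3 and 95.5 CPM with WT fibroblasts and 84.7, 86.8 and 114 CPM with sgPrrx1 fibroblasts, also lowest alone. Aurka changed by 0.50 ± 0.12 (SE; adjusted p = 0.044) with all libraries and 0.51 ± 0.049 (SE; adjusted p = 1.53e-04) without sgPrrx1 replicate 3 for WT against alone. The sgPrrx1 value was 0.54 ± 0.12 (SE; adjusted p = 0.0499) with all libraries and 0.40 ± 0.054 (SE; adjusted p = 0.00155) without sgPrrx1 replicate 3. With a block for the replicate number the sgPrrx1 call was lost (adjusted p = 0.0532, edgeR), and it was lost in 11 of 19 alternatives in all, against 8 of 19 for WT against alone. Plk1, a kinase of mitotic entry, stood at 65.9, 69.1 and 68.6 CPM alone, 90.8, 89.8 and 87.2 CPM with WT fibroblasts and 104, 97.8 and 137 CPM with sgPrrx1 fibroblasts. Its groups did not overlap, and Plk1 changed by 0.74 ± 0.13 (SE; adjusted p = 0.0238) with all libraries and 0.58 ± 0.051 (SE; adjusted p = 2.72e-04) without sgPrrx1 replicate 3 for sgPrrx1 against alone. Kif20a, a motor of the central spindle, stood at 84.2, 87.2 and 84.6 CPM alone, 116, 120.3 and 118 CPM with WT fibroblasts and 123, 124 and 122 CPM with sgPrrx1 fibroblasts. Both cocultures were above the cells alone, and sgPrrx1 replicate 3 was close to its replicates. Kif20a changed by 0.53 ± 0.073 (SE; adjusted p = 0.011) with all libraries and 0.54 ± 0.045 (SE; adjusted p = 2.01e-04) without sgPrrx1 replicate 3 for sgPrrx1 against alone. Its call was lost in 4 of 19 alternatives for sgPrrx1 and in 2 for WT. Birc5 stood at 74.0, 76.5 and 86.0 CPM alone, 123, 101 and 117 CPM with WT fibroblasts and 104, 102 and 125 CPM with sgPrrx1 fibroblasts. Birc5 changed by 0.53 ± 0.12 (SE; adjusted p = 0.0346) with all libraries and 0.54 ± 0.084 (SE; adjusted p = 0.0013) without sgPrrx1 replicate 3 for WT against alone. The call was lost in 9 of 19 alternatives for Birc5 and in 8 for Plk1, among them each that left out an alone or WT library. Cdk1 stood at 153, 148 and 168 CPM alone, 184, 181 and 198 CPM with WT fibroblasts and 168, 168 and 255 CPM with sgPrrx1 fibroblasts, highest in sgPrrx1 replicate 3, and it passed for WT against alone only without sgPrrx1 replicate 3. Mki67 stood at 300.4, 333 and 228 CPM alone, 209, 264 and 204 CPM with WT fibroblasts and 293, 295 and 129 CPM with sgPrrx1 fibroblasts. Top2a stood at 696, 713 and 616 CPM alone, 604, 628 and 578 CPM with WT fibroblasts and 634, 642 and 408 CPM with sgPrrx1 fibroblasts. Both were lowest in sgPrrx1 replicate 3, and neither passed in any comparison, with or without that library.

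**Figure D4:**
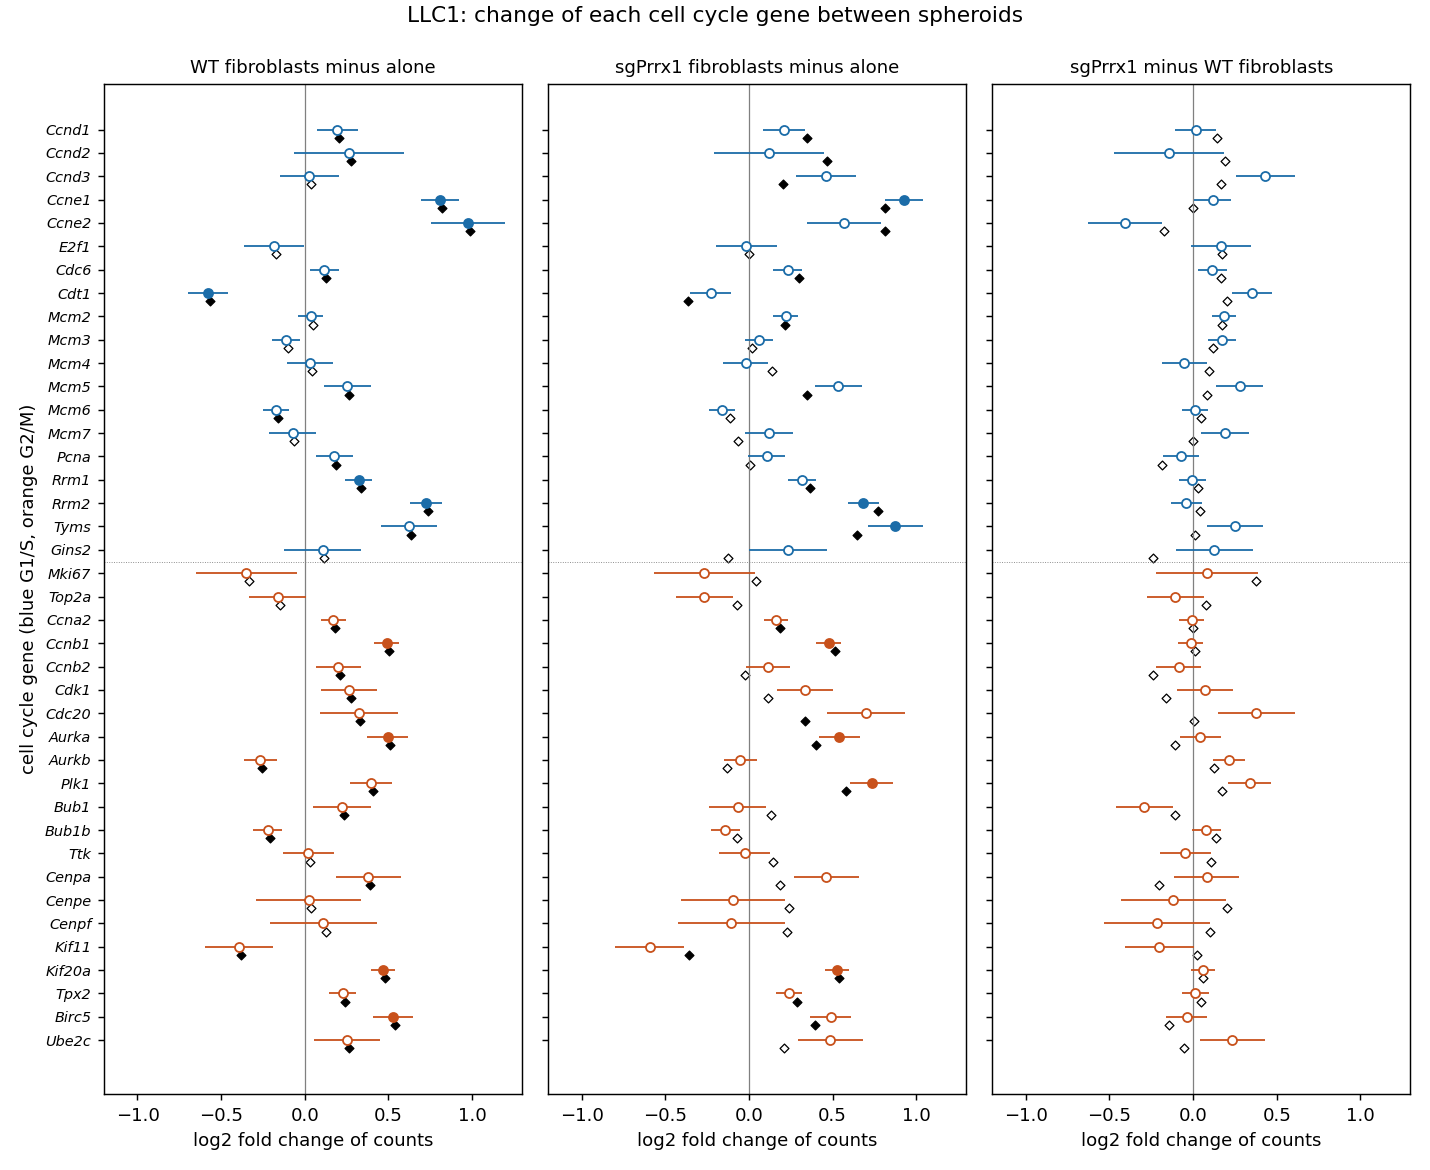
Log2 fold change of each of the 40 genes in LLC1 for WT against alone, sgPrrx1 against alone and sgPrrx1 against WT, as circles with SE bars for all libraries and as black diamonds without sgPrrx1 replicate 3, filled where the adjusted p of edgeR's quasi-likelihood test was under 0.05. With all libraries 9, 7 and 0 circles are filled, and 28, 21 and 0 diamonds.

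How far sgPrrx1 replicate 3 lay from its replicates followed transcript length and GC content. Over the 40 genes the rank correlation of its log2 difference with transcript length was -0.65, and over 11176 genes it was also -0.65. With GC content it was 0.67 and 0.53. Alone replicate 3 differed from its own replicates with length at -0.84 over the 40 genes, but only 4 of the 40 lay more than 0.25 from the mean of the others. The fold changes moved with both as well. Their rank correlation with length over the 40 genes was -0.31 for WT against alone, -0.44 for sgPrrx1 against alone and -0.37 for sgPrrx1 against WT, and -0.28, -0.40 and -0.22 over all genes. With GC content it was -0.10, 0.26 and 0.83 over the 40 genes, and -0.21, 0.26 and 0.65 over all genes. Long transcripts such as Mki67 and Ccnd2 were low in sgPrrx1 replicate 3 and short ones such as Ube2c were high.

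**Figure D5:**
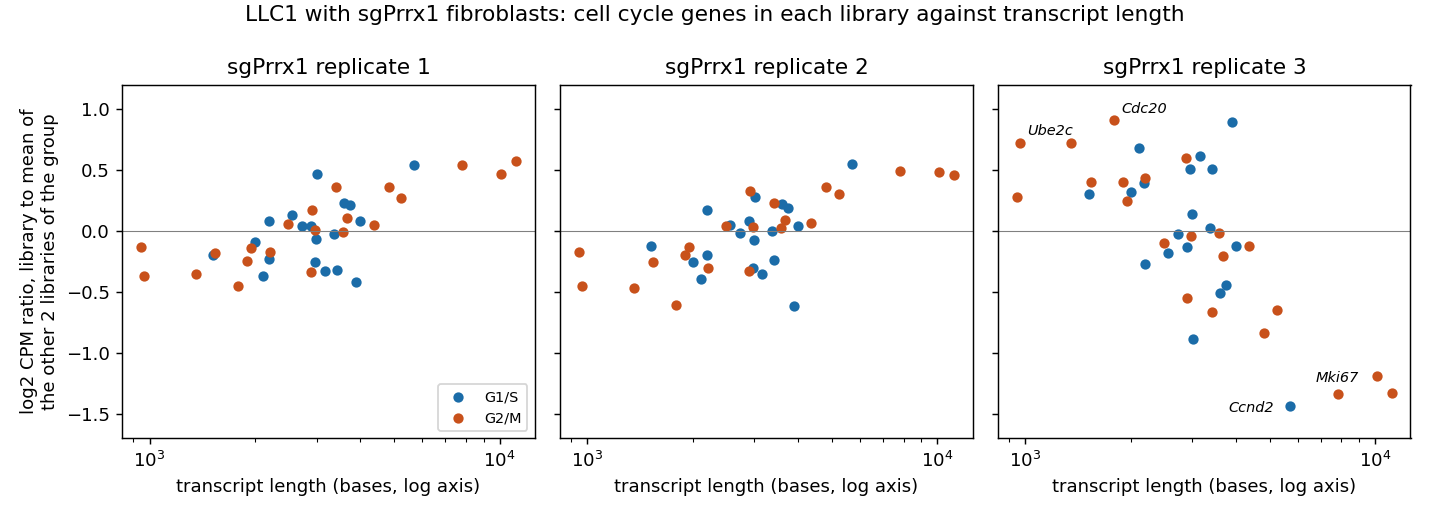
Log2 difference of each LLC1 sgPrrx1 library from the mean of its 2 replicates (y axis) against transcript length in bases on a log axis (x axis), 1 panel per library and 1 point per gene, coloured by phase. In replicate 3 the 40 genes span -1.44 to 0.91 and fall with length, with a rank correlation of -0.65 across genes.

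The change from cells alone to WT coculture differed between the lines in 17 of the 40 genes, beside 29.4% of 14369 genes in a joint edgeR fit of the 18 libraries with an interaction term. Without LLC1 sgPrrx1 replicate 3 it was 29 of the 40, beside 52.5%. Tyms differed most, with a log2 fold change of -0.65 in 168FARN and 0.62 in LLC1. Ccnb1 was -0.32 in 168FARN and 0.49 in LLC1, and Rrm2 was -0.076 and 0.72. For Bub1b the order was turned, at 0.42 and -0.22. The lines also differ in the fibroblasts they met and in the table they were counted in, so line, fibroblast and table cannot be told apart.

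Other genes of the cell cycle were counted from 10 lists of known function, described by counts and medians. In 168FARN 64.1% of all genes passed for WT against alone, 49.7% for sgPrrx1 against alone and 60% for sgPrrx1 against WT. In 168FARN the spindle, condensin and cytokinesis genes were mostly lower with sgPrrx1 CAFs. Of 41 tested, 2 were higher and 27 lower with sgPrrx1 CAFs than alone, 1 higher and 30 lower for sgPrrx1 against WT, and 13 higher and 5 lower for WT against alone. Its median log2 fold changes were -0.17, -0.23 and 0.029 in that order. With the centred offset for length and GC content, they were -0.17, -0.20 and -0.010, with 2 higher and 29 lower, 2 higher and 31 lower, and 13 higher and 10 lower. With the offset not centred, sgPrrx1 against WT gave 9 higher and 14 lower and WT against alone 0 higher and 36 lower. Kif14, a motor of cytokinesis, went from 48.8 CPM alone to 35.9 CPM with sgPrrx1 CAFs, and Ckap5, which promotes microtubule growth, from 187 CPM with WT to 129 CPM with sgPrrx1 CAFs. Of the kinetochore and spindle checkpoint genes, 3 of 38 were higher and 23 lower for WT against alone, 3 higher and 14 lower for sgPrrx1 against alone, and 19 higher and 8 lower for sgPrrx1 against WT, with medians of -0.19, -0.077 and 0.13. With the centred offset the last did not hold, with 9 higher and 10 lower and a median of -0.023, and WT against alone gave 8 higher and 15 lower and a median of -0.075. Mad2l1, a checkpoint protein, was 159 CPM alone and 114 CPM with WT CAFs.

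On the replication side, 8 of 10 nucleotide supply genes were higher and 0 lower with sgPrrx1 CAFs than alone, 7 higher and 2 lower with WT CAFs, and 6 higher and 3 lower for sgPrrx1 against WT, with medians of 0.16, 0.15 and 0.17. With the offset not centred, sgPrrx1 against alone gave 3 higher and 1 lower with a median of 0.0076, and WT against alone turned to 2 higher and 7 lower with a median of -0.13. Umps, of pyrimidine synthesis, rose from 160.0 CPM alone to 214 CPM with sgPrrx1 CAFs. Of 40 origin licensing and replication fork genes, 10 were higher and 17 lower for WT against alone, 12 higher and 6 lower for sgPrrx1 against alone, and 20 higher and 9 lower for sgPrrx1 against WT, with medians of -0.12, 0.042 and 0.14. With the centred offset sgPrrx1 against alone turned to 8 higher and 10 lower, and without centring 0 were higher and 18 lower. Gmnn, the inhibitor of Cdt1, stood at 78.1 CPM with sgPrrx1 CAFs and 53.1 CPM with WT CAFs.

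Upstream regulators were counted in the same way. Of 17 genes of the E2F, DREAM and mitotic transcription factor list, 9 were higher and 2 lower in 168FARN with either CAF type than alone, and 3 were higher and 8 lower for sgPrrx1 against WT. These 11 of 17 stand beside 64.1%, 49.7% and 60% of all genes in the 3 comparisons. With the offset not centred they turned to 4 higher and 9 lower for WT against alone and 8 higher and 5 lower for sgPrrx1 against WT, and were 5 and 5 for sgPrrx1 against alone. Myc was 128 CPM alone, 280.3 CPM with WT CAFs and 183 CPM with sgPrrx1 CAFs, and Foxm1, the factor of mitotic genes, was 175 CPM alone and 209.7 CPM with sgPrrx1 CAFs. Of 10 CDK inhibitors and pocket proteins, 2 were higher and 3 lower in each coculture than alone, beside the same 64.1% and 49.7%. Both higher ones, Cdkn2a and Cdkn2b, had 0 counts in the 168FARN cells alone. Cdkn2a stood at 9.20 ± 0.497 CPM (SD, n = 3) with WT CAFs and 2.94 ± 0.19 CPM with sgPrrx1 CAFs, the same order of groups as the summed fibroblast markers. In LLC1 it was 0 alone, 1.95 ± 0.234 CPM with WT and 0.172 ± 0.068 CPM with sgPrrx1 fibroblasts, where the summed fibroblast markers were highest alone and lowest with WT. Whether these reads came from the cancer cells was not tested.

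The remaining lists were mixed in 168FARN. Of 15 CDKs and CDK-regulating enzymes, 2 were higher and 9 lower for WT against alone, 2 and 4 for sgPrrx1 against alone, and 8 and 3 for sgPrrx1 against WT. Of 17 checkpoint and recombination genes the counts were 3 and 6, 5 and 7, and 5 and 6. Of 16 p53 targets they were 5 and 10, 2 and 8, and 7 and 7, and of 17 genes of the anaphase-promoting complex 2 and 7, 4 and 5, and 8 and 5. With the offset not centred, each of the 10 lists had more lower than higher genes for WT against alone, and for sgPrrx1 against WT the checkpoint and recombination genes turned to 12 higher and 0 lower. In LLC1 with all libraries, at most 5 genes of any of these 10 lists passed in a comparison, and 0 passed for sgPrrx1 against WT, beside 8.83%, 4.32% and 0.0544% of all genes for WT against alone, sgPrrx1 against alone and sgPrrx1 against WT. Without sgPrrx1 replicate 3, for WT against alone, 16 of 38 kinetochore genes were higher and 2 lower, 15 of 40 replication genes higher and 5 lower, and 11 of 41 spindle genes higher and 5 lower, beside 44.2% of all genes (22% higher and 22.2% lower).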

How the data were processed

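Raw counts of reads per gene symbol were deposited as 1 table per line, made by the authors from 100 bp paired reads trimmed with Trimmomatic, aligned to mm10 with STAR and counted with HTSeq. The strand setting and the handling of pairs in counting are not given in the sources used here. A batch correction of counts is described for other samples, and whether it was applied here is not stated. All columns were used.

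The analysis used edgeR 4.0.16 (R 4.3.3). After filterByExpr (13540 genes in 168FARN and 12873 in LLC1) and TMM scaling, all 9 libraries of each line entered 1 model with group means. Two-sided quasi-likelihood tests were adjusted by Benjamini-Hochberg over all genes, with a threshold of 0.05, and the lines were compared by an interaction term in a joint fit of 18 libraries and 14369 genes. CPM values were computed here from TMM-scaled totals. Scores are the mean over genes of log2 CPM centred on the 9 libraries of a line. No 2 replicates agreed within sampling noise (chi-square per degree of freedom of at least 10.8). Same-numbered libraries were taken as paired where the deviations of all 3 pairs correlated over 0.1, which held only for LLC1 alone and sgPrrx1 (0.21, 0.44 and 0.63), and no label says what a number shares. The main model had no block, and blocked values are given where they changed a call in that comparison.

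Promoters and gene models were from RefSeq (GRCm38.p6) and transcript lengths from the transcript with the longest coding sequence, which all 40 genes and 87.5% of 168FARN and 86.8% of LLC1 genes tested had. All 40 genes may be named. Fold changes and adjusted p-values are given for up to 3 rises and 3 falls per phase and comparison. The genes, lists and tests were chosen with earlier results of these data known. Alternatives were DESeq2 1.42.0, limma voom 3.58.1 with sample quality weights, other scalings and filters, a replicate block, only the 2 groups compared, each library left out and, chosen after seeing the data, an offset for length and GC content. Figures were drawn in Python 3.11.15 with matplotlib 3.10.9.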

Additional observations from a re-analysis of the deposited data

Results flagged for a closer look

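The change from cells alone to WT coculture differed between 168FARN and LLC1 in 17 of the 40 genes by the interaction term of the joint edgeR fit (adjusted p under 0.05), beside 29.4% of all genes. The difference, 168FARN minus LLC1 on the log2 scale, was negative for 12 genes. Among those of G1/S it was -1.28 for Tyms, -1.04 for Ccne2, -0.90 for Ccne1, -0.80 for Rrm2, -0.46 for Pcna and -0.24 for Rrm1. Among those of G2/M it was -0.83 for Cenpa, -0.81 for Ccnb1, -0.56 for Aurka, -0.47 for Cdk1, -0.47 for Birc5 and -0.43 for Kif20a. It was positive for 5 genes, at 0.76 for Cdt1, 0.39 for Mcm6 and 0.25 for Mcm2 among those of G1/S, and 0.64 for Bub1b and 0.42 for Aurkb among those of G2/M. Cdk1 and Rrm1 each lost the call in 15 of the alternatives. The lines met different fibroblasts and were counted in separate tables, so these cannot be told apart.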

How the results depend on the processing

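Counts of genes past the threshold and median log2 fold changes moved as follows, and the cause was not tested. Without scaling factors, values were G1/S median of 0.13 and G2/M median of 0.086 in 168FARN WT against alone, G1/S median of 0.12 and G2/M median of -0.074 in 168FARN sgPrrx1 against alone, G1/S median of -0.022 and G2/M median of -0.20 in 168FARN sgPrrx1 against WT, G1/S median of 0.16 and G2/M median of 0.10 in LLC1 sgPrrx1 against alone, G1/S median of 0.053 and G2/M median of -0.038 in LLC1 sgPrrx1 against WT. With RLE scaling, values were G1/S median of 0.15 and G2/M median of -0.038 in 168FARN sgPrrx1 against alone, G1/S median of 0.14 in LLC1 WT against alone. With DESeq2, values were G1/S median of 0.15 and G2/M median of -0.038 in 168FARN sgPrrx1 against alone, G1/S median of 0.14 in LLC1 WT against alone, 15 genes in LLC1 sgPrrx1 against alone (15.1% of all genes), 1 gene in LLC1 sgPrrx1 against WT (3.9%). With at least 10 counts in every library, values were G1/S median of 0.14 in LLC1 WT against alone, G1/S median of 0.094 in LLC1 sgPrrx1 against WT. Fitting only the 2 groups compared, values were G1/S median of 0.056 and G2/M median of -0.13 in 168FARN sgPrrx1 against WT, 24 genes in LLC1 WT against alone (40.7% of all genes), 0 genes in LLC1 sgPrrx1 against alone (0.215%). With limma voom, values were G2/M median of -0.14 in 168FARN sgPrrx1 against WT, 31 genes (58.6% of all genes) and G1/S median of 0.090 in LLC1 WT against alone, 28 genes (48%) in LLC1 sgPrrx1 against alone, 20 genes (36.4%) and G1/S median of 0.085 in LLC1 sgPrrx1 against WT. With a block for the replicate number, values were G1/S median of 0.20 in LLC1 sgPrrx1 against alone. With the centred offset for length and GC content, values were G2/M median of 0.040 in 168FARN WT against alone, G1/S median of 0.15 in 168FARN sgPrrx1 against alone, G1/S median of 0.093 and G2/M median of -0.20 in 168FARN sgPrrx1 against WT, 16 genes (23.5% of all genes), G1/S median of 0.15 and G2/M median of 0.13 in LLC1 WT against alone, 21 genes (22.6%), G1/S median of 0.26 and G2/M median of 0.23 in LLC1 sgPrrx1 against alone, G1/S median of 0.070 and G2/M median of 0.11 in LLC1 sgPrrx1 against WT. With that offset not centred, values were G1/S median of -0.16 and G2/M median of -0.24 in 168FARN WT against alone, G1/S median of 0.025 and G2/M median of -0.18 in 168FARN sgPrrx1 against alone, G1/S median of 0.24 and G2/M median of -0.046 in 168FARN sgPrrx1 against WT, 14 genes (23.2% of all genes) and G2/M median of 0.085 in LLC1 WT against alone, 20 genes (20.7%), G1/S median of 0.29 and G2/M median of 0.26 in LLC1 sgPrrx1 against alone, G1/S median of 0.14 and G2/M median of 0.18 in LLC1 sgPrrx1 against WT.

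Leaving out 1 library at a time gave -0.061 to -0.039 for the G2/M median in 168FARN sgPrrx1 against alone, 0.016 to 0.038 for the G1/S median in 168FARN sgPrrx1 against WT, -0.17 to -0.13 for the G2/M median in 168FARN sgPrrx1 against WT, 0.088 to 0.12 for the G1/S median in 168FARN WT against alone, 0.041 to 0.069 for the G2/M median in 168FARN WT against alone, 15 to 29 genes with a difference between the lines, 0.20 to 0.22 for the G1/S median in LLC1 sgPrrx1 against alone, 0 to 21 genes in LLC1 sgPrrx1 against alone, 0.081 to 0.17 for the G1/S median in LLC1 sgPrrx1 against WT, 0.12 to 0.17 for the G1/S median in LLC1 WT against alone, 2 to 28 genes in LLC1 WT against alone. The difference between the lines was highest without LLC1 sgPrrx1 replicate 3, at 29 genes beside 52.5% of all genes. At its lowest, 15, the share of all genes was not counted. Both the LLC1 counts were also highest without that library, at 28 for WT against alone and 21 for sgPrrx1 against alone. For sgPrrx1 against alone the count was 0 without alone replicate 1 or 2, 1 without alone replicate 3, 3 without WT replicate 1, WT replicate 2 or sgPrrx1 replicate 1, and 4 without WT replicate 3. For WT against alone it was 2 without alone replicate 1 or 2, 3 without WT replicate 1, and 4 without alone replicate 3, WT replicate 2 or WT replicate 3.

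Of 1265 values of the genes named with a fold change, computed under the alternatives, 1145 kept their direction and side of the threshold, 113 no longer passed and 7 reversed. The 7 all reversed in 168FARN under the offset not centred, with WT against alone at -0.00855 for Ccnd3, -0.040 for Mcm2, -0.086 for Top2a and -0.13 for Tpx2, sgPrrx1 against alone at -0.0036 for Birc5 and -0.047 for Ube2c, and sgPrrx1 against WT at 0.065 for Mcm2. By construction that offset also shifted the median of all 168FARN genes, by -0.25, -0.13 and 0.11 in the 3 comparisons, against 0.0035, -0.015 and -0.034 once centred. The offset was tried in both forms after seeing the data. The correlation of the deviations of same-numbered libraries was over 0.1 in 2 of 9 pairs in 168FARN, with a mean of 0.039, and in 7 of 9 in LLC1, with a mean of 0.25 and a range of -0.15 to 0.63. All 3 pairs were over 0.1 for LLC1 alone and sgPrrx1, and in the other comparisons at least 1 was not. With the replicate block the counts were 31, 27 and 32 in 168FARN (63.2%, 49.1% and 59.4% of all genes) and 7, 6 and 0 in LLC1 (7.99%, 2.96% and 0.0155%). The blocked count for the difference between the lines was 19, and the share of all genes in that fit was not counted. Of the genes named with a fold change, Aurka lost its call for LLC1 sgPrrx1 against alone and Ccne2 for LLC1 WT against alone. Depth limited little here, as the lowest count of any of the 40 genes was 486.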
